A study of Homo sapiens with 6 samples.

Results

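Transcripts of the circadian clock were examined by RNA sequencing in cells with a hairpin RNA against RNF26, an E3 ubiquitin ligase of the endoplasmic reticulum membrane. The genes were 10 named clock components (PER1, PER2, PER3, CRY1, CRY2, BMAL1, formerly ARNTL, CLOCK, NR1D1, NR1D2 and DBP), taken by symbol from the 61541 genes of the count table. Each symbol matched 1 row, and all 10 passed the filter on low counts. The 6 libraries were 3 from cells with a short hairpin RNA (shRNA) against RNF26 (shRNF26) and 3 from cells with a control shRNA (shcontrol). Both groups are labelled as A498, an established line from a human clear cell renal carcinoma, and as having gone through transfection and infection. The labels name no hairpin, harvest time or step that would synchronise the clocks of the cells, and they do not say that replicates were separate cultures. The p-values therefore measure the spread between these libraries alone, which may be technical, and whether the groups were harvested at the same time is not stated. In bulk RNA, fewer cells that express a gene and less RNA per cell cannot be told apart.

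In mammalian cells the heterodimer of CLOCK and BMAL1 binds E-box sequences and activates the PER, CRY, NR1D1, NR1D2 and DBP genes. PER and CRY proteins enter the nucleus and repress that heterodimer. NR1D1 and NR1D2 encode the nuclear receptors REV-ERB alpha and REV-ERB beta, which repress BMAL1 through elements that the ROR receptors activate, and DBP carries the rhythm to genes with D-box elements. Most tissues, kidney included, hold such a clock.

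Total gene counts were 16682871 to 18021718 per library, so that 1 count was worth 0.0555 to 0.0599 CPM (gene counts scaled to library size). RNF26 itself had 1216, 1274 and 1175 counts in the shRNF26 libraries, against 35331, 31901 and 31928 in the shcontrol libraries. The direction matches the labels. After scaling by trimmed mean of M values (TMM), as for all CPM levels below, RNF26 averaged 68.7 CPM in shRNF26 and 1972 CPM in shcontrol libraries. That shcontrol level exceeded those of the abundant genes NONO (912 CPM) and KRT5 (583 CPM). The 6 libraries include no untreated cells, so whether it is usual for these cells was not tested. Of the labelled origin, 9 of 13 markers of renal epithelium or its clear cell tumours stayed under a mean of 1 CPM, among them PAX2 and CA9, while the whole list summed to 245 to 263 CPM in shRNF26 and 246 to 257 CPM in shcontrol libraries. Most of that sum came from EPAS1, which encodes HIF-2 alpha, at 194 CPM in shRNF26 and 170 CPM in shcontrol libraries, followed by MME at 34.6 CPM in shRNF26 and 26.2 CPM in shcontrol libraries and VIM at 19.3 CPM in shRNF26 and 49.9 CPM in shcontrol libraries. PAX8, a transcription factor that marks renal epithelium, averaged 2.12 CPM in shRNF26 and 2.90 CPM in shcontrol libraries. All 8 markers of stratified squamous epithelium exceeded a mean of 1 CPM. Their sum was 1541 to 1619 CPM in shRNF26 libraries and 2078 to 2220 CPM in shcontrol libraries. KRT14 averaged only 3.09 CPM in shRNF26 and 4.04 CPM in shcontrol libraries. SPRR1B was also low among the 8, at 2.51 CPM in shRNF26 and 5.13 CPM in shcontrol libraries. KRT6A, KRT17 and SFN were among those called lower, whereas TP63 was called higher (log2 fold change 0.17, edgeR adjusted p = 0.0044) and KRT5, the most abundant, had 623 CPM in shRNF26 and 583 CPM in shcontrol libraries and was not called. The part of these differences in the clock gene results was not tested.

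The promoters of 4 members are printed as examples of windows that hold letters of the elements described for the clock loops. The windows are RefSeq sequences (GRCh38.p14) from 250 bases before to 50 bases after an annotated start, read 5′ to 3′ on the strand of the gene. The NR1D1 window lies at chr17:40100540-40100839 (minus strand), that of NR1D2 at chr3:23945871-23946170 (plus strand), where the downstream of its 2 windows is shown, that of BMAL1 at chr11:13277540-13277839 (plus strand), likewise the downstream of 2, and that of PER1 at chr17:8152355-8152654 (minus strand). Capitals mark matches, on either strand, to the E-box CACGTG, the related CACGTT, the D-box TTATGNAA, the AGGTCA core of REV-ERB and ROR elements, and TGACG, the shorter form of the cAMP response element TGACGTCA, every match of which also contains it.
NR1D1: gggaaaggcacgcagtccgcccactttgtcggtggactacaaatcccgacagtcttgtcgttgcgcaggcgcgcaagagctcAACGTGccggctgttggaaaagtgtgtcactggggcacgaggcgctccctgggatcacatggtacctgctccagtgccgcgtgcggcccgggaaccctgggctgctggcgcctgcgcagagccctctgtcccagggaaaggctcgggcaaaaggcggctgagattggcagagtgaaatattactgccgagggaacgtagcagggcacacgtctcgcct
NR1D2: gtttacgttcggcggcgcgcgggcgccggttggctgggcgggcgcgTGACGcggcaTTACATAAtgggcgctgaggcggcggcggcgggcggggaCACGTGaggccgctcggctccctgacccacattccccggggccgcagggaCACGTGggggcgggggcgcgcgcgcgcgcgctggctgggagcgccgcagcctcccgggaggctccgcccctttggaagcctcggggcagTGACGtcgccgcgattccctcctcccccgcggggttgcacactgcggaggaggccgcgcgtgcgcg
BMAL1: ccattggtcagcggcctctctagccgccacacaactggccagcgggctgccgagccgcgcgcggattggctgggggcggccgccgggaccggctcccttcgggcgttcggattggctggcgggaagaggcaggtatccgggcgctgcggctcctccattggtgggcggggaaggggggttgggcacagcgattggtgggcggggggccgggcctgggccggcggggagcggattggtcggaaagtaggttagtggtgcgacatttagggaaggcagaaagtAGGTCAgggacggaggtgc
PER1: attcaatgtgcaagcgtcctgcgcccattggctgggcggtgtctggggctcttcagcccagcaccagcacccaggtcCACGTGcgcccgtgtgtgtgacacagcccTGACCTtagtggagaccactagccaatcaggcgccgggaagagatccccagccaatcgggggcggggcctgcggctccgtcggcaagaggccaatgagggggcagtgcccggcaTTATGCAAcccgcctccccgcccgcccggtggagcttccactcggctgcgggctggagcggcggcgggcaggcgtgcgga
In NR1D1 the only match was CACGTT, on the reverse strand with its first base at position -168 from the start. NR1D2 held E-boxes at -155 and -105, a D-box at -194 and TGACG at -204 and -16, while its other window held TGACG at -1. BMAL1 held AGGTCA at position 32, while its other window held no match, and PER1 an E-box at -173, a D-box at -30 and AGGTCA on the reverse strand at -144. Of the 15 RefSeq windows of the 10 members, 2 held CACGTG, 5 CACGTT, 3 TTATGNAA, 4 AGGTCA, 7 TGACG and 0 TGACGTCA. By gene, these matches lay in 2, 5, 3, 3, 5 and 0 members, in that order. DBP was the only member without any match. Among all 35116 windows of that length, 7.26% held CACGTG, 5.34% CACGTT, 3.3% TTATGNAA, 13.8% AGGTCA, 24.6% TGACG and 1.85% TGACGTCA. A match is a string of letters in a short window and does not show binding.

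The clock genes did not move as a block. NR1D1 was 3.41-fold lower in the shRNF26 libraries, BMAL1 was 1.48-fold lower, and CRY1 and NR1D2 were lower by smaller amounts. DBP was 1.35-fold higher, and PER1, PER2, PER3, CRY2 and CLOCK did not pass the test. Thus 4 of the 10 fell, 1 rose and 5 did not pass at an adjusted p below 0.05 (edgeR quasi-likelihood test, Benjamini-Hochberg adjustment over all genes tested). Across all 14766 tested genes 41.4% were called, 22.6% lower and 18.9% higher, so the share of clock genes called was close to that of all genes. The median log2 fold change was -0.14 over the 10 genes and 0.01 over all tested genes. With libraries scaled by total counts alone, 2 clock genes fell and 1 rose, and over all genes 4449 rose and 2269 fell, in place of 2785 and 3332.

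**Figure D1:**
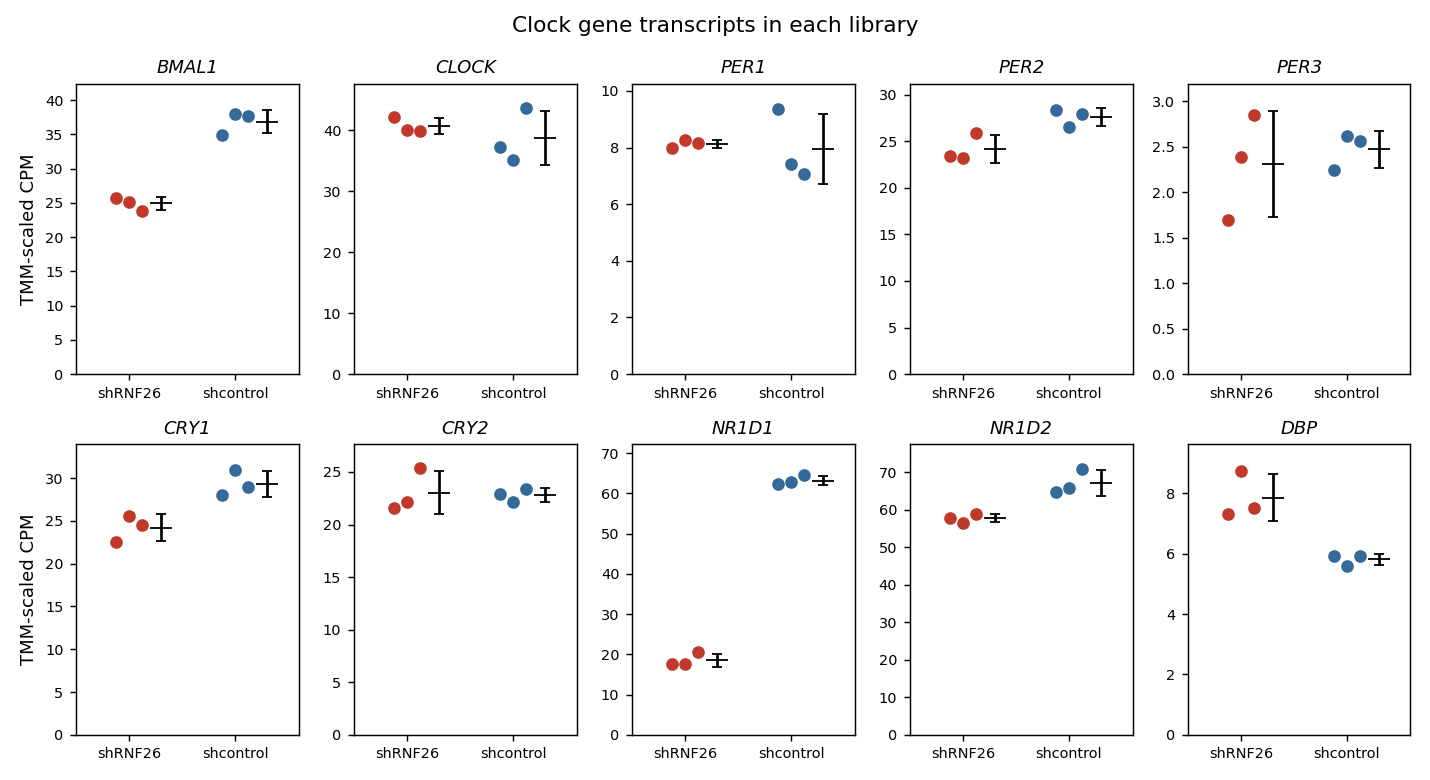
Level of each of the 10 clock genes in CPM after scaling by trimmed mean of M values (vertical axis, from 0, with its own range in each panel) in the 3 shRNF26 libraries (red) and the 3 shcontrol libraries (blue), with the mean and SD in black. NR1D1 had 17.5 to 20.5 CPM in shRNF26 and 62.4 to 64.4 CPM in shcontrol libraries, while PER1, PER3, CRY2 and CLOCK overlapped between groups.

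The REV-ERB genes showed the widest contrast among the 7 pairs of clock genes examined. NR1D1 (ENSG00000126368) had 17.5, 17.6 and 20.5 CPM in the shRNF26 libraries, against 62.4, 62.7 and 64.4 CPM in the shcontrol libraries (TMM-scaled, as all levels below). Every shRNF26 library lay below every shcontrol library, with a gap far wider than either group. Its log2 fold change of -1.77 had an SE of 0.069 (edgeR adjusted p = 1.25e-13), which ranked 111 from the lowest among the 14766 tested genes. Of all tested genes 2.4% fell by at least 2-fold, and NR1D1 was the sole clock gene of the 10 to do so. Exons of NR1D1 overlap those of THRA, a thyroid hormone receptor gene on the opposite strand, and the strand setting used in counting is not stated. THRA had 79.6 to 81.1 CPM in shRNF26 and 82.4 to 84.1 CPM in shcontrol libraries, with a log2 fold change of -0.05 (edgeR adjusted p = 0.43) that turned to 0.04 with total-count scaling.

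NR1D2 (ENSG00000174738), which encodes the second REV-ERB receptor, had 57.9, 56.6 and 58.7 CPM in shRNF26 libraries and 64.6, 65.8 and 71.0 CPM in shcontrol libraries. The groups did not overlap, but the difference was small (log2 fold change -0.22 with SE 0.055, edgeR adjusted p = 0.0038). The call was lost with total-count scaling (-0.13, adjusted p = 0.069). Within a library, NR1D1 counts were 0.303, 0.312 and 0.349 of NR1D2 counts in the shRNF26 libraries and 0.965, 0.954 and 0.908 in the shcontrol libraries. That ratio does not depend on scaling between libraries. The log2 ratio differed by -1.56, with p = 0.10 in a two-sided exact permutation test, the smallest that 3 against 3 libraries allow, and 0.14 after adjustment over the 7 ratios examined.

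The activators diverged. BMAL1 (ENSG00000133794), the partner of CLOCK and the textbook target of REV-ERB repression, had 25.8, 25.2 and 23.8 CPM in shRNF26 libraries, against 35.0, 37.9 and 37.8 CPM in shcontrol libraries. All 3 shRNF26 values were below all 3 shcontrol values (log2 fold change -0.56 with SE 0.071, edgeR adjusted p = 3.21e-06). BMAL1 and NR1D1 both fell, BMAL1 by less: BMAL1 counts were 1.16 to 1.47 times those of NR1D1 in shRNF26 libraries and 0.561 to 0.605 times in shcontrol libraries (log2 difference 1.21, exact permutation p = 0.10, adjusted 0.14). CLOCK (ENSG00000134852), the DNA-binding partner of BMAL1, had 42.2, 40.0 and 39.9 CPM in shRNF26 libraries and 37.3, 35.1 and 43.7 CPM in shcontrol libraries. Shcontrol replicate 3 lay above all other libraries, and the groups overlapped. The log2 fold change of CLOCK was 0.07 (95% interval -0.08 to 0.23, edgeR adjusted p = 0.46). CLOCK overlaps TMEM165 on the opposite strand, a Golgi membrane protein gene with a log2 fold change of 0.08 (edgeR adjusted p = 0.19, and 0.17 with adjusted p = 0.0069 under total-count scaling).

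**Figure D2:**
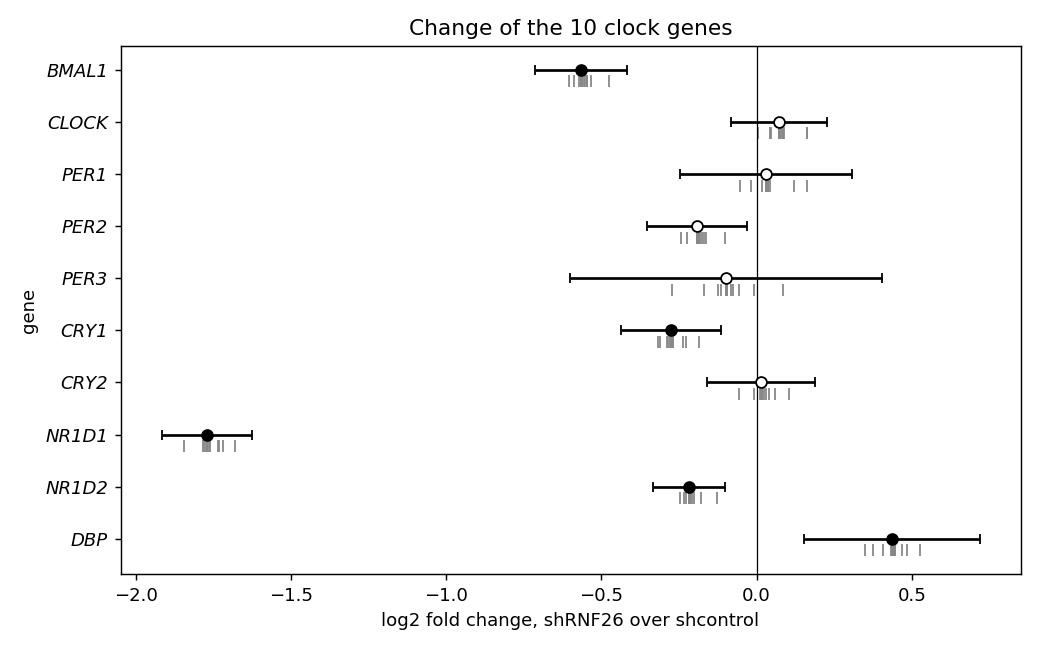
Log2 fold change of each clock gene, shRNF26 over shcontrol (horizontal axis), with 95% intervals; filled points passed an adjusted p of 0.05 and open points did not. Grey ticks are the other settings tried, which ranged from -1.85 to -1.68 for NR1D1 and from -0.61 to -0.47 for BMAL1.

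Among the repressors, CRY1 was lower and its paralogue CRY2 was not called. CRY1 (ENSG00000008405), the cryptochrome that represses CLOCK and BMAL1 most strongly in mouse cells, had 22.5, 25.5 and 24.5 CPM in shRNF26 libraries and 28.0, 31.0 and 28.9 CPM in shcontrol libraries. The groups did not overlap (log2 fold change -0.28 with SE 0.077, edgeR adjusted p = 0.0074). The call was lost with total-count scaling (-0.19, adjusted p = 0.058) and without shRNF26 replicate 1 (-0.23, adjusted p = 0.056). CRY2 (ENSG00000121671) had 21.6, 22.2 and 25.4 CPM in shRNF26 libraries and 22.9, 22.1 and 23.4 CPM in shcontrol libraries, which overlap. Its log2 fold change was 0.01 (95% interval -0.16 to 0.19, edgeR adjusted p = 0.91). The sign turned to -0.01 without shcontrol replicate 2 and to -0.06 without shRNF26 replicate 3. The ratio of CRY1 to CRY2 counts was 1.04, 1.15 and 0.968 in shRNF26 libraries and 1.23, 1.40 and 1.24 in shcontrol libraries, a log2 difference of -0.29 (exact permutation p = 0.10, adjusted 0.14).

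The PER genes, whose proteins enter the nucleus with CRY proteins, were not called. PER2 (ENSG00000132326) came nearest, with 23.4, 23.2 and 25.9 CPM in shRNF26 libraries and 28.4, 26.5 and 27.9 CPM in shcontrol libraries. These groups did not overlap, yet the log2 fold change of -0.19 (95% interval -0.35 to -0.03) had an edgeR adjusted p of 0.051. PER2 passed in 3 of the 15 alternatives, among them a robust fit (edgeR adjusted p = 0.049) and the fit without shRNF26 replicate 3 (-0.24, adjusted p = 0.030). It did not pass with total-count scaling (-0.10, edgeR adjusted p = 0.29), or without shRNF26 replicate 1 (-0.17, adjusted p = 0.16) or 2 (-0.16, adjusted p = 0.16). PER1 (ENSG00000179094), which is also induced by serum, cAMP and glucocorticoid, had 7.99, 8.26 and 8.14 CPM in shRNF26 libraries and 9.36, 7.43 and 7.07 CPM in shcontrol libraries. The shRNF26 libraries lay inside the range of the shcontrol libraries. Its log2 fold change was 0.03 (95% interval -0.25 to 0.31, edgeR adjusted p = 0.88), and it was -0.02 without shcontrol replicate 2 and -0.05 without shcontrol replicate 3. PER3 (ENSG00000049246), the least abundant clock gene of the 10, had 30, 44 and 49 counts in shRNF26 libraries and 39, 43 and 42 counts in shcontrol libraries. Its log2 fold change was -0.10 (95% interval -0.60 to 0.40, edgeR adjusted p = 0.78), and 0.08 without shRNF26 replicate 1. A change of PER3 within that interval was not detectable at this depth. The ratio of PER1 to PER2 differed by 0.23 (log2, exact permutation p = 0.20, adjusted 0.23) and that of PER1 to PER3 by 0.17 (p = 0.50, adjusted 0.50), and in both ratios the groups overlapped.

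DBP (ENSG00000105516), the D-box activator that is a direct output of CLOCK and BMAL1, was the only 1 of the 10 genes to be called higher. It had 7.32, 8.75 and 7.50 CPM in shRNF26 libraries, from 130, 161 and 129 counts, and 5.92, 5.60 and 5.91 CPM in shcontrol libraries, from 103, 92 and 97 counts. Each shRNF26 library exceeded each shcontrol library, and shRNF26 replicate 2 was the highest (log2 fold change 0.44 with SE 0.13, edgeR adjusted p = 0.014). The call was lost without shRNF26 replicate 2 (0.35, adjusted p = 0.083) and without shcontrol replicate 2 (0.41, adjusted p = 0.050). Exons of DBP overlap those of SPHK2, a sphingosine kinase gene on the opposite strand, which had 17.7, 21.6 and 20.2 CPM in shRNF26 libraries and 16.0, 15.0 and 18.0 CPM in shcontrol libraries. SPHK2 had a log2 fold change of 0.28 (edgeR adjusted p = 0.028), and shRNF26 replicate 2 was highest for both genes. That call was lost without shcontrol replicate 1 (0.26) or 2 (0.22) and without shRNF26 replicate 2 (0.22) or 3 (0.27). Without a strand setting, reads from the stretch that DBP and SPHK2 share cannot be assigned to either gene. The part of such reads in the DBP counts was not tested.

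In all, 6 of the 10 clock genes had groups that did not overlap (NR1D1, BMAL1, CRY1, NR1D2, DBP and PER2), beside 50.1% of all tested genes.

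Levels were set against each other as TMM-scaled CPM per kilobase of exon, with exon lengths from all GENCODE 29 transcripts of a gene, which differ in how many rare transcripts they include. In shRNF26 libraries NR1D2 stood first at 9.92 ± 0.19 CPM per kilobase and NR1D1 followed at 6.68 ± 0.61, whereas in shcontrol libraries NR1D1 stood first at 22.8 ± 0.40 and NR1D2 followed at 11.5 ± 0.58 (SD, n = 3 each). CRY1 was next in both groups, at 4.78 ± 0.30 CPM per kilobase in shRNF26 and 5.79 ± 0.30 in shcontrol libraries. In shRNF26 libraries CRY2 (3.71), BMAL1 (3.71), PER2 (3.51) and CLOCK (3.46) then had overlapping intervals of 1 SD. In shcontrol libraries BMAL1 (5.49) overlapped CRY1 within 1 SD, followed by PER2 (4.01), CRY2 (3.67) and CLOCK (3.29), the last pair overlapping. PER1 and DBP lay far lower, at 1.16 and 1.20 CPM per kilobase in shRNF26 and 1.14 and 0.888 in shcontrol libraries, overlapping within 1 SD in shRNF26 libraries. PER3 was lowest in both, at 0.285 CPM per kilobase in shRNF26 and 0.305 in shcontrol libraries.

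**Figure D3:**
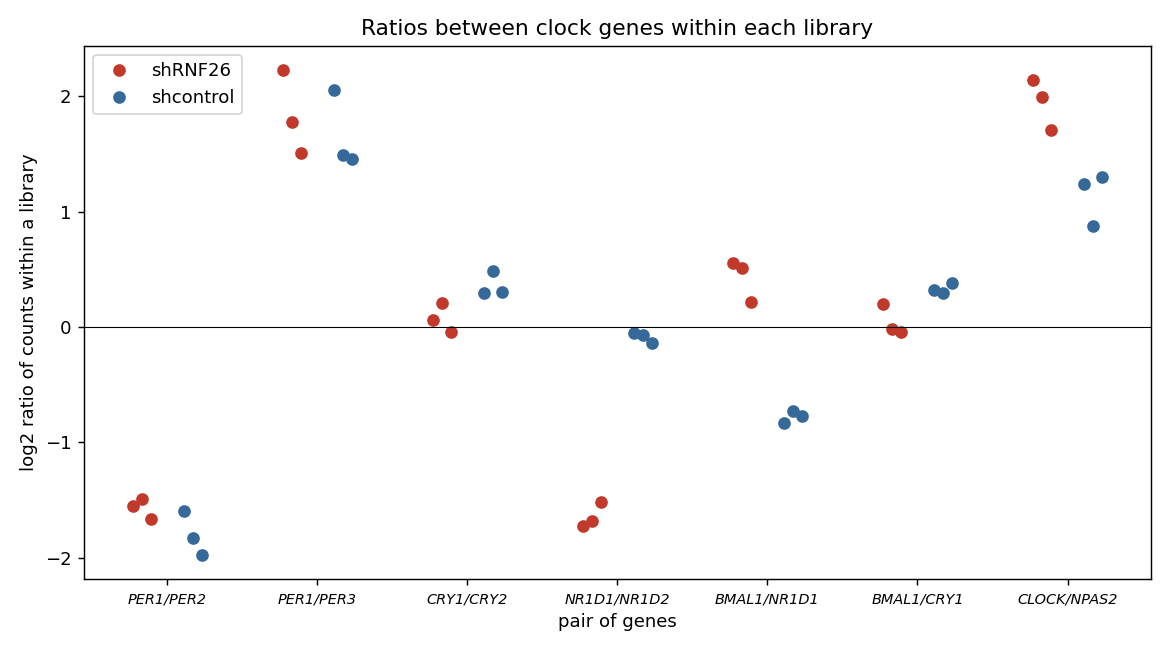
Log2 ratio of counts of 2 clock genes within each library (vertical axis), for the 7 pairs examined, in shRNF26 (red, left of each pair) and shcontrol (blue, right) libraries. NR1D1/NR1D2 averaged -1.64 in shRNF26 and -0.09 in shcontrol libraries, the widest gap of the 7. The groups did not overlap in 5 of the 7 ratios, beside 50.1% of single tested genes. Several pairs share a gene, and the share for other gene pairs was not computed.

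Among other transcription factors of the clock loops, 8 of 11 listed were tested: 5 were lower, 1 was higher and 2 missed the threshold, beside 22.6% lower and 18.9% higher of all tested genes. Their median log2 fold change was -0.43. NPAS2, which can replace CLOCK as partner of BMAL1, had 9.57, 10.1 and 12.2 CPM in shRNF26 libraries and 15.9, 19.2 and 17.7 CPM in shcontrol libraries. The groups were well apart (log2 fold change -0.73 with SE 0.11, edgeR adjusted p = 3.25e-05). CLOCK counts were 3.26 to 4.40 times those of NPAS2 in shRNF26 libraries and 1.83 to 2.46 times in shcontrol libraries (log2 difference 0.81, exact permutation p = 0.10, adjusted 0.14). BMAL2, the paralogue of BMAL1, fell to 101 ± 3.3 CPM in shRNF26 libraries, against 135 ± 7.9 CPM in shcontrol libraries (SD, n = 3 each, log2 fold change -0.42). RORA, the activator that competes with REV-ERB at the BMAL1 promoter, had 53, 55 and 56 counts in shRNF26 libraries and 86, 69 and 102 counts in shcontrol libraries (log2 fold change -0.73 with SE 0.19, edgeR adjusted p = 0.0042). RORA, NR1D1 and BMAL1 were thus all called lower, while RORB, a relative of RORA, was not called (log2 fold change 0.41, edgeR adjusted p = 0.19). A link between these changes was not tested.

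Other repressors of the loops differed in direction. BHLHE40 (DEC1), which competes for E-boxes, fell to 70.1 ± 1.1 CPM in shRNF26, against 95.0 ± 4.4 CPM in shcontrol libraries (log2 fold change -0.44). Its paralogue BHLHE41 (DEC2) moved the other way, with 20.5 ± 2.0 CPM in shRNF26 and 15.8 ± 0.43 CPM in shcontrol libraries (log2 fold change 0.38 with SE 0.092, edgeR adjusted p = 0.0027). NFIL3, which represses through the D-box that DBP activates, had 42.0 ± 0.94 CPM in shRNF26 and 58.4 ± 4.3 CPM in shcontrol libraries (log2 fold change -0.48). Of the relatives of DBP, TEF had 29.5 ± 1.6 CPM in shRNF26 and 29.9 ± 0.72 CPM in shcontrol libraries. Its log2 fold change was -0.02 (edgeR adjusted p = 0.87), which turned to 0.07 with total-count scaling and 0.03 without shRNF26 replicate 3. HLF, the third of these factors, was near absent, with 1, 0 and 0 counts in shRNF26 and 4, 4 and 3 in shcontrol libraries. CIART, a repressor of CLOCK and BMAL1, had 18, 18 and 12 counts in shRNF26 and 19, 13 and 10 in shcontrol libraries.

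**Figure D4:**
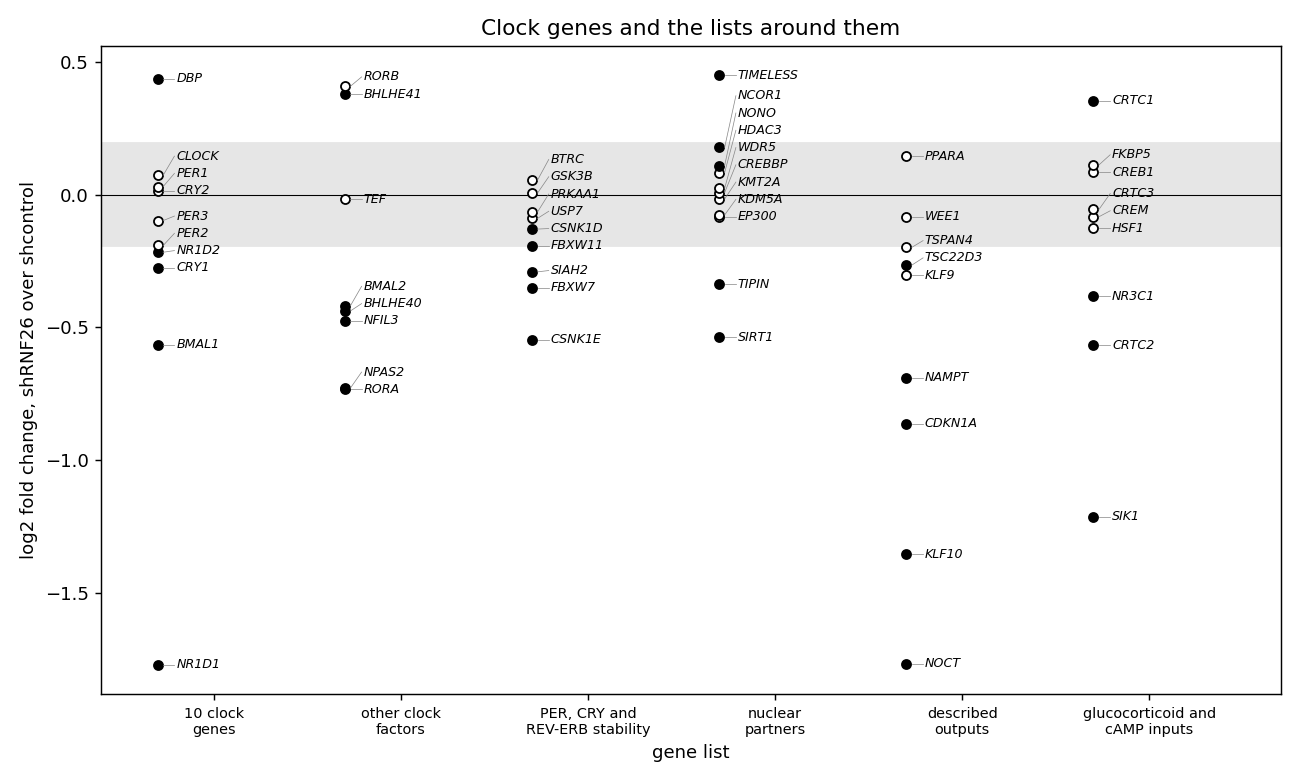
Log2 fold change, shRNF26 over shcontrol (vertical axis), of the 10 clock genes and of tested genes of 5 lists around them, less a few not reported here; filled points passed an adjusted p of 0.05 and open points did not, and each label is tied to its point. The grey band holds the middle of all tested genes, from the lower quartile (-0.19) to the upper quartile (0.20).

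Of 10 tested enzymes that set the stability of clock proteins, 6 were lower, 0 were higher and 4 missed the threshold (median log2 fold change -0.16), beside 22.6% lower and 18.9% higher of all tested genes. Of these 6 calls, those of CSNK1D and FBXW11 were lost with total-count scaling. CSNK1E, the casein kinase 1 epsilon that phosphorylates PER proteins, fell to 137 ± 7.3 CPM in shRNF26, against 200 ± 11 CPM in shcontrol libraries (SD, n = 3 each, log2 fold change -0.55 with SE 0.050, edgeR adjusted p = 4.61e-08). The F-box gene FBXW7 had a log2 fold change of -0.35, SIAH2, a ligase reported to act on REV-ERB alpha, -0.29 and FBXW11 -0.19. CSNK1D, the delta kinase, had -0.13 (edgeR adjusted p = 0.032), with -0.04 under total-count scaling, and the call was also lost without shcontrol replicate 1 (-0.08) or 2 (-0.15), and without shRNF26 replicate 1 (-0.15), 2 (-0.14) or 3 (-0.10). FBXW11 had -0.10 under total-count scaling. CSNK1D overlaps the abundant SLC16A3 on the opposite strand.

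Of 11 nuclear partners of the clock, 3 were higher, 2 lower and 6 did not pass (median 0.01), a share called near the 41.4% of all tested genes. TIMELESS, best known in mammals for replication fork protection, rose to 116 ± 2.9 CPM in shRNF26, against 85.2 ± 5.9 CPM in shcontrol libraries (log2 fold change 0.45). Its binding partner TIPIN was lower (-0.34), as was the deacetylase SIRT1 (-0.54). NCOR1, a corepressor that REV-ERB receptors recruit, was higher (0.18), and so was NONO (0.11), whose call was lost without shRNF26 replicate 1 (0.11, adjusted p = 0.061). NCOR1 and BHLHE41 overlap genes on the opposite strand.

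Among 10 genes described as clock outputs, 6 fell, 0 rose and 4 did not pass (median log2 fold change -0.50), again beside 22.6% lower and 18.9% higher of all tested genes. NOCT, which encodes the phosphatase nocturnin, rhythmic in mouse liver, had 77, 98 and 84 counts in shRNF26 libraries and 290, 276 and 264 counts in shcontrol libraries (log2 fold change -1.77 with SE 0.12, edgeR adjusted p = 3.72e-10). KLF10, a zinc finger factor, was 2.56-fold lower, the cell cycle inhibitor CDKN1A 1.82-fold lower and NAMPT, the NAD salvage enzyme, 1.61-fold lower. These genes also answer to many signals other than the clock. Of the 9 tested genes of the glucocorticoid and cAMP inputs, 3 fell, 1 rose and 5 did not pass (median -0.08), a share called near that of all tested genes. The kinase SIK1 had 21, 31 and 17 counts in shRNF26 and 62, 38 and 51 in shcontrol libraries (log2 fold change -1.21 with SE 0.27), and it has a near-identical copy that could share its reads. Of the CREB coactivators CRTC2 was lower (-0.57), CRTC1 was higher (0.35) and CRTC3 was not called (-0.06), and the glucocorticoid receptor NR3C1 was lower (-0.38). Over the 5 lists 22 of 48 tested genes fell, 5 rose and 21 did not pass (median -0.13), beside the 22.6% lower and 18.9% higher of all tested genes, and with total-count scaling 20 fell and 10 rose.

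Across the 6 libraries the profiles of RND3 and CXCL2 were among the 3 nearest to that of NR1D1, by the root mean square difference between centred log2(CPM + 0.5) values. The difference was 0.044 for RND3 and 0.057 for CXCL2. RND3 averaged 83.4 CPM in shRNF26 and 279 CPM in shcontrol libraries. The chemokine gene CXCL2 averaged 59.2 CPM in shRNF26 and 210 CPM in shcontrol libraries. This likeness mostly reflects a similar fold between the groups.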

How the data were processed

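The authors deposited 1 table of raw gene counts for the 6 libraries; although named for FPKM, it holds whole numbers with unequal totals. The submitters' processing notes name build hg19. For the aligner, counter, annotation and strand setting the labels give nothing. Blank rows (2, with 0% of counts) were dropped. A gene name table matched 61369 IDs to symbols and GENCODE 29 another 159.

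Genes with a mean of at least 1 CPM (14766, with 99.7% of counts) entered the two-sided quasi-likelihood test of edgeR 4.0.16 (R 4.3.3), with TMM scaling and Benjamini-Hochberg adjustment at 0.05. SEs were derived from the fold change and its F statistic. The script was tested on simulated counts. Ratios used counts plus 0.5. Replicate libraries differed by more than sampling noise (chi-square per degree of freedom 2.31 to 4.98). Alternatives were DESeq2 1.42.0, limma 3.58.1 on log2(CPM + 1), other scalings and filters, a robust fit, a replicate block and leaving out each library.

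The clock genes, lists and tests were chosen with earlier results of these data known. Besides the 10 clock genes and RNF26, the rule named up to 5 called genes per list by absolute change, 13 paralogs or partners, and the 3 profiles nearest to the most changed clock gene. Genes on the opposite strand of a clock gene, and RORB, were added after values were seen, and CRTC3 is also outside the rule. A few genes that this rule selects are not reported here, though the counts over lists include them.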

Additional observations from a re-analysis of the deposited data

How the results depend on the processing

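RNF26, NR1D1 and BMAL1 kept their direction and their call under every alternative run. With total-count scaling 3 of the 10 clock genes were called, in place of 5. Leaving out 1 library gave 4 to 6. The calls of CRY1, NR1D2, DBP, CSNK1D, FBXW11, NONO and SPHK2 depended on scaling or on single libraries, and the cause was not tested. Signs turned for values near 0. Leaving out 1 library gave log2 fold changes of -0.052 to 0.16 for PER1, -0.27 to 0.084 for PER3, -0.058 to 0.061 for CRY2 and -0.042 to 0.027 for TEF, and -0.025 to 0.36 for the difference in the log2 PER1/PER3 ratio. Total-count scaling gave 0.073 for TEF and 0.041 for THRA. Same-numbered libraries did not deviate together (r = 0.01, -0.03 and 0.09), so the replicate numbers were not taken as pairs. With a replicate block 6 clock genes were called, PER2 among them (-0.19, edgeR adjusted p = 0.050), and 29 of the 48 wider clock genes, while calls over all genes went up to 6414, against 6117 without it. At 30 to 49 counts per library, PER3 could show only large changes.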
